A study of Mus musculus with 31 samples.

Results

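Gene expression was compared between wild-type (+/+) mouse retina at postnatal day 28 (P28, 4 arrays) and at postnatal day 14 (P14, 4 arrays). These 8 of the 31 arrays of the series were taken by their label of age and genotype. Each array held total RNA of both retinas of 1 mouse, hybridised to an Affymetrix mouse array, and no +/+ mouse carried an engineered allele according to the labels. The other 23 arrays, used here only to ask whether the age difference was the same elsewhere, came from +/+;CrxpNrl retina (P28, n = 3, and P14, n = 4), Rorb-/- retina (n = 4 at each age) and Rorb-/-;CrxpNrl retina (n = 4 at each age). CrxpNrl is a transgene in which the promoter of the photoreceptor gene Crx drives the rod-determining factor Nrl, and Rorb-/- mice lack the orphan nuclear receptor RORbeta. Strain is not given in the sources used here.

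As background, the mouse retina has made all of its neurons before the eyes open, which happens at about the younger of these ages. In the weeks that follow, rods and cones finish their outer segments, bipolar cell synapses mature, the deeper vessel plexuses are remodelled and growth of axons and dendrites comes to an end. The comparison therefore asks what still changes in a retina whose cells are already born and in place.

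Values are log2 signals, so that a difference of 1 is a 2-fold change, and every difference is P28 minus P14. Array medians lay between 5.84 and 5.87 and lower quartiles between 4.00 and 4.05, so a value under about 4.05 belongs to the dimmest 25% of its array. Across genes, arrays correlated at 0.9925 to 0.9943 within P28, at 0.9927 to 0.9967 within P14 and at 0.9876 to 0.9909 between the ages. By the signal of Xist, 2 of 4 P28 mice and 1 of 4 P14 mice had a female pattern. Markers fitted the label of the tissue, since rod genes averaged 11.75 to 11.88 over 19 measured markers in the P28 arrays and 11.41 to 11.52 in the P14 arrays, near the top of the scale. P28 replicate 3 stood apart in markers of other eye tissues. Its mean over 14 lens genes was 10.93, against 6.36 to 7.95 in the other P28 arrays and 6.70 to 7.50 in the P14 arrays. The labels do not say whether both ages were hybridised together, and age and any such batch cannot be told apart.

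Of 18193 genes, 2495 differed between P28 and P14 at an adjusted p under 0.05 (limma, Benjamini-Hochberg over all genes), which is 13.7%. Higher at P28 were 1050 genes (5.77%) and lower 1445 genes (7.94%). The median difference over all genes was 0.00. Changes of at least 2-fold were fewer and mostly falls, with 51 genes higher (0.28%) and 103 lower (0.566%). In these bulk samples, fewer cells of a type and less RNA per cell cannot be told apart. The 4 P28 arrays lay wholly above the 4 P14 arrays for 1550 genes (8.52%) and wholly below them for 1839 genes (10.1%).

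**Figure D1:**
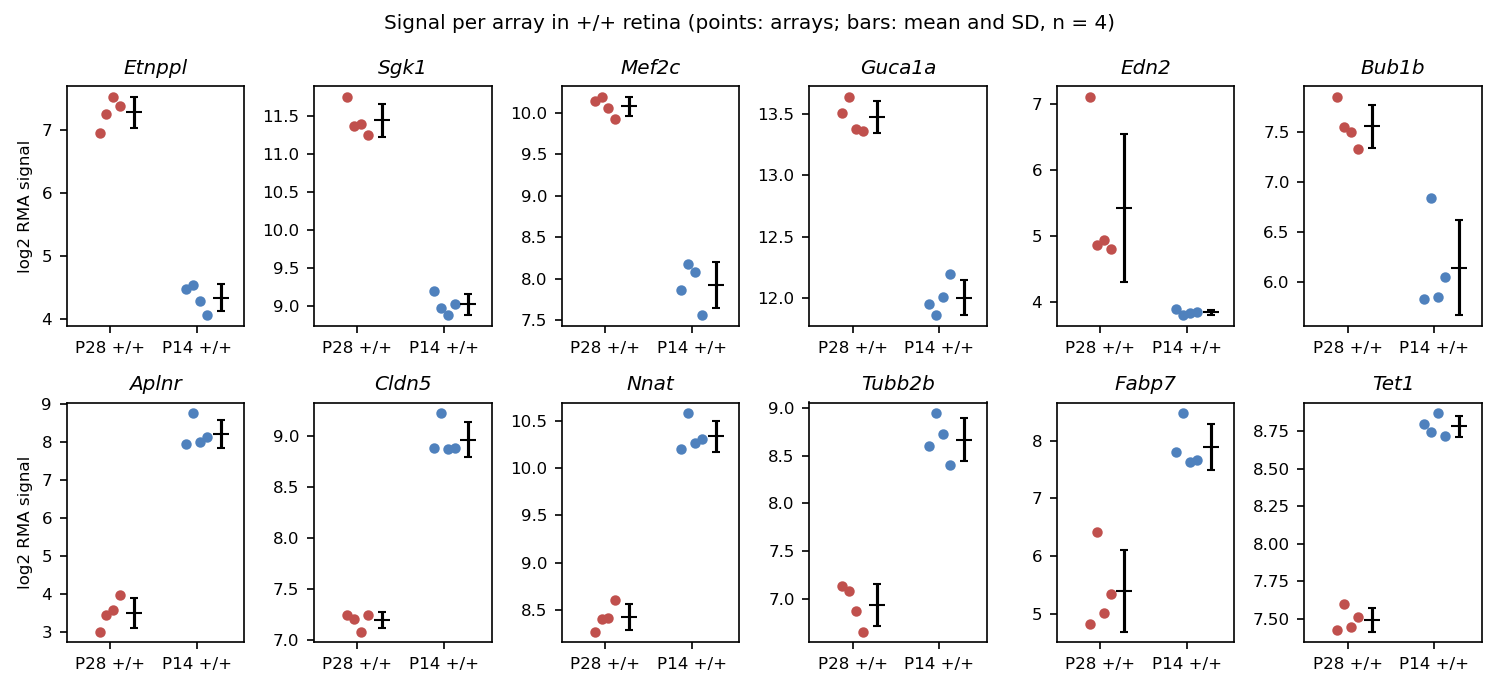
Log2 RMA signal of 6 genes higher at P28 (top row) and 6 genes lower at P28 (bottom row) in each +/+ array, P28 left in red and P14 right in blue, each panel with its own axis; bars give mean and SD (n = 4). No P28 array overlaps a P14 array in these panels, and P28 replicate 1 stands at 7.11 for Edn2 while the other P28 arrays lie between 4.81 and 4.94.

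The largest rise was that of Etnppl, an ethanolamine-phosphate lyase of lipid metabolism that is enriched in astrocytes of the brain. Etnppl read 6.96, 7.26, 7.53 and 7.39 in the P28 arrays, against 4.47, 4.53, 4.27 and 4.06 in the P14 arrays. Every P28 array was above every P14 array, and the difference was 2.95 ± 0.37 (SE, adjusted p = 3.07e-06), or 7.74-fold. Both of its probe sets rose, by 2.06 and 2.95.

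Sgk1, the serum- and glucocorticoid-regulated kinase, which controls ion channels and transporters, came next. Its signal was 11.75, 11.37, 11.39 and 11.25 in the P28 arrays, against 9.21, 8.98, 8.89 and 9.03 in the P14 arrays. The groups were far apart relative to their spread, and the rise of 2.41 ± 0.31 (SE, adjusted p = 4.64e-06) amounted to 5.33-fold. Its promoter is shown because 1 of the 6 start sites that RefSeq lists for the gene carries a full palindromic site of the glucocorticoid receptor, which is AGAACA, then 3 bases of any kind, then TGTTCT. It was searched on both strands and is given in capitals. The sequence lies at chr10:21993640-21993939 on the plus strand of GRCm38.p6 (RefSeq), and the match ends 175 bases before the start site.
Sgk1 promoter: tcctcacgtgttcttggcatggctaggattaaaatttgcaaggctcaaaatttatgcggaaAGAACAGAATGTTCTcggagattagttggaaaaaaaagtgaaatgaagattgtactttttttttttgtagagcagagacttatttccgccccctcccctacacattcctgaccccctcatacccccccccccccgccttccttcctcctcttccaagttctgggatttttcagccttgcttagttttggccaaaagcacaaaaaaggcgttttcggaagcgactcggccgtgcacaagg
Of 32851 listed promoters of this length, 3 (0.00913%) hold this motif. Among genes with a listed promoter it occurred in 1 of 864 that rose, in 0 of 1144 that fell and in 1 of 12444 that did not pass. The 1 that rose is Sgk1 itself, which is shown for its match, so these counts say nothing about other genes that rose. A match is a description of the letters and not evidence of binding.

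Other genes known to be induced by glucocorticoids were looked up after the rise of Sgk1 had been seen, and they did not move as a block. Fam107a (1.45 ± 0.43, adjusted p = 0.0215), Zbtb16 (0.69 ± 0.22, adjusted p = 0.0355), Dusp1 (0.70 ± 0.15, adjusted p = 0.00199) and the metallothioneins Mt1 (0.67) and Mt2 (0.87) passed the test. Fkbp5 (0.34), Tsc22d3 (0.10), Per1 (0.18) and Klf9 (-0.23) did not, nor did Nr3c1 (0.18), which encodes the glucocorticoid receptor. For Fam107a the P28 arrays read 9.42, 9.44, 8.18 and 7.57, against 7.25, 7.77, 6.95 and 6.83 in the P14 arrays. P28 replicates 1 and 2 were high and replicate 4 fell within the P14 range. Zbtb16 showed the same pair on top, with 7.12 and 7.39 in P28 replicates 1 and 2 and 6.17 and 6.21 in replicates 3 and 4, against 5.89 to 6.29 in the P14 arrays. The adjusted p of Fam107a was 0.0974 without P28 replicate 1 and 0.0906 without P28 replicate 2. For Zbtb16 it was 0.142 and 0.18. The probe set of Mt1 not marked as sharing sequence gave 0.24 (adjusted p = 0.188).

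Of 19 measured rod phototransduction genes, 1 rose and none fell, where 5.77% of all genes rose and 7.94% fell. The median difference of the list was 0.33 against 0.00 over all genes. The riser was Guca1a, the guanylate cyclase activating protein that speeds recovery of the light response. Guca1a read 13.51, 13.64, 13.38 and 13.36 in the P28 arrays, against 11.94, 11.86, 12.01 and 12.19 in the P14 arrays. The groups did not overlap, and the rise was 1.47 ± 0.28 (SE, adjusted p = 0.000614). Rod transducin Gnat1 read 13.94 to 14.03 in the P28 arrays and 13.79 to 13.87 in the P14 arrays, a difference of 0.14 that did not pass (adjusted p = 0.909). Pde6b and Pde6a, catalytic subunits of the rod phosphodiesterase, differed by 0.34 and 0.32 and did not pass either.

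These calls depended on which arrays estimated the spread. With the 8 +/+ arrays alone, 8 rod phototransduction genes were higher and 1 was lower, where 938 of all genes were higher (5.16%) and 1416 lower (7.78%), and the same held for 9 and 3 genes of the outer segment and cilium list and for 4 and 0 of the cone list. Adjusted p-values in that fit were 0.0466 for Gnat1, 0.00168 for the short-wave cone opsin Opn1sw (0.61) and 0.00312 for the outer segment disc protein Rom1 (0.45).

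The promoter of Guca1a is shown because this gene rose most among the rod genes. RefSeq lists 1 promoter, at chr17:47400557-47400856 on the minus strand of GRCm38.p6, and it is given 5′ to 3′ along the gene. The core site of the photoreceptor factor CRX, TAATCC, was searched on both strands and is matched once, on the opposite strand, as the capitals show.
Guca1a promoter: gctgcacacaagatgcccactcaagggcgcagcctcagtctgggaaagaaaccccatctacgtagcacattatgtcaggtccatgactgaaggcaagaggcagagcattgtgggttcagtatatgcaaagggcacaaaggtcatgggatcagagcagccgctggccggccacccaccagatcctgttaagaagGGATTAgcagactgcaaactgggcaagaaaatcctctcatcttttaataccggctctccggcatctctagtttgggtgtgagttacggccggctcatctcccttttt
This short motif is common, with 2320 of 32851 promoters (7.06%) holding it. It occurred in 6.13% of the genes that rose, 5.86% of those that fell and 7.5% of those that did not pass.

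In the cone list, 2 of 13 measured genes rose, against 5.77% of all genes. Cone transducin Gnat2 read 11.23 to 11.30 in the P28 arrays and 10.59 to 10.73 in the P14 arrays, with a rise of 0.61 ± 0.19 (adjusted p = 0.0333). Ccdc136 rose by 0.37 (adjusted p = 0.00659), while the middle-wave opsin Opn1mw differed by 0.08 and did not pass. Cone arrestin Arr3, named for the largest difference of the list (1.24), did not pass on the probe set used. Its 3 probe sets rose by 1.10 to 1.33, and 2 of them passed when all probe sets were tested. Leaving out any array except P14 replicate 1 took the adjusted p of Gnat2 past 0.05, with a highest value of 0.0833.

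Of 16 measured photoreceptor transcription factors 1 passed the test, Mef2c, which was higher, as were 5.77% of all genes. For 3 others the P28 arrays lay wholly below the P14 arrays, as they did for 10.1% of all genes. Crx differed by 0.08 ± 0.16, Nrl by -0.05 ± 0.40 and Otx2 by -0.06 ± 0.09, and none passed. Mef2c, a MADS-box factor that binds photoreceptor enhancers together with CRX, read 10.14, 10.19, 10.05 and 9.93 in the P28 arrays, against 7.87, 8.18, 8.09 and 7.56 in the P14 arrays. The groups did not overlap, and the rise of 2.16 ± 0.33 (adjusted p = 4.87e-05) was 4.46-fold. All 5 probe sets of Mef2c rose, by 1.62 to 2.19. Rorb itself averaged 10.58 ± 0.20 at P28 and 10.97 ± 0.12 at P14 (SD, n = 4 each), a difference of -0.38 ± 0.19 that did not pass (adjusted p = 0.209), while the 8 +/+ arrays alone gave 0.024. The lowest member, the repressor Prdm1 (-0.61, adjusted p = 0.1), did not overlap either, with 7.10 to 7.38 at P28 and 7.49 to 8.09 at P14.

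Prph2, which shapes the disc rim of the outer segment, was erratic. Its only probe set read 6.66, 8.05, 8.86 and 7.59 in the P28 arrays, against 7.32, 12.50, 12.61 and 12.71 in the P14 arrays. P14 replicate 1 lay with the P28 arrays, and the difference of -3.50 ± 1.29 had an adjusted p of 0.0711. Without that array the difference was -4.82 (adjusted p = 0.00984). The other outer segment genes near it in the list, Rom1 (0.45) and Prom1 (0.07), showed no such gap.

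Calls among synapse genes stand beside 5.77% of all genes higher and 7.94% lower. Of 20 genes of synaptic vesicles and the ribbon synapse, the presynaptic scaffold gene Pclo rose by 0.24 (adjusted p = 0.011) and the release-site gene Rims1 fell by 0.67 (adjusted p = 0.000306). The ribbon gene Ctbp2 (-0.07) and the scaffold gene Bsn (-0.09) did not pass. None of 15 glutamate receptor genes passed in limma, with differences between -0.28 and 0.17, and 1 had an unadjusted p under 0.05. Among 15 receptors and transporters of inhibition, the retinal GABA receptor gene Gabrr2 rose by 0.41, and the early-expressed glycine receptor gene Glra2 (-0.64) and the chloride importer Slc12a2 (-0.36) fell. The sodium channel subunits Scn3a (-0.64) and Scn3b (-0.56), which are high in the young brain, were the only 2 of 20 voltage-gated channel genes that passed.

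Genes of immature neurons and growing neurites fell together. Of 25 measured members, 18 fell and none rose, against 7.94% of all genes that fell, and the median difference was -0.58 against 0.00 over all genes. The mean over the list was 9.21 to 9.33 in the P28 arrays and 9.90 to 10.03 in the P14 arrays. Leaving out P28 replicate 3 gave 18 falls as well, and any other single array 16 to 19.

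Nnat, a small proteolipid of developing neurons, read 8.27, 8.40, 8.41 and 8.61 in the P28 arrays, against 10.20, 10.58, 10.26 and 10.30 in the P14 arrays. The drop of 1.91 log2 units (SE 0.11, adjusted p = 3.52e-12) was 3.76-fold, with no overlap. Tubb2b, a tubulin of growing neurites, read 7.14, 7.08, 6.87 and 6.66 at P28, against 8.60, 8.95, 8.73 and 8.41 at P14. It fell by 1.73 ± 0.22 (adjusted p = 4.13e-06). Marcksl1, which links actin to the membrane, fell by 1.75 ± 0.14. Smaller falls were seen in the neuronal differentiation factor Sox4 (-1.14), the microtubule-binding doublecortin gene Dcx (-1.03), the growth-cone gene Gap43 (-0.84), the neuronal tubulin Tubb3 (-0.77) and the microtubule regulator Stmn2 (-0.73).

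Axon guidance genes fell in part, with 8 of 19 measured members lower, against 7.94% of all genes, none higher and a median of -0.26. The secreted cue Sema3c read 4.85, 5.28, 5.85 and 4.66 in the P28 arrays, against 5.84, 6.48, 6.53 and 6.81 in the P14 arrays. P28 replicate 3 lay just above the lowest P14 array, and the drop was 1.25 ± 0.24 (adjusted p = 0.000547). The Slit receptor Robo1 fell by 0.93 on the probe set used, 1 of 3, and by 0.29 with their mean. Falls were also seen in the semaphorin co-receptors Plxna1 (-0.70), Plxna2 (-0.51) and Nrp1 (-0.55) and in the membrane-bound Sema6a (-0.46). Sema3a differed by -0.12 and did not pass.

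Chromatin genes fell in 5 of 17 cases and rose in 1, where 7.94% of all genes fell and 5.77% rose. Tet1, which oxidises 5-methylcytosine, read 7.42 to 7.60 in the P28 arrays and 8.71 to 8.87 in the P14 arrays, a drop of 1.29 ± 0.08 (adjusted p = 8e-12). The de novo DNA methyltransferase Dnmt3a fell by 0.75 and the high-mobility-group gene Hmgb3 by 0.84, whereas Dnmt1 (0.20) and Dnmt3b (0.24) did not pass. Hmgb2 rose by 0.87 (adjusted p = 0.00174) on the probe set used and on another, and read -0.01 on the third of its probe sets, the only 1 not marked as sharing sequence with other transcripts. Cell cycle genes were dim, with 2 of 23 higher and 3 lower, where 5.77% of all genes were higher and 7.94% lower. Mki67 (-0.13) and Top2a (0.09) did not pass. Bub1b, a spindle checkpoint kinase, had the largest difference of the list. It read 7.85, 7.54, 7.49 and 7.33 in the P28 arrays against 5.83, 6.84, 5.85 and 6.05 in the P14 arrays. It rose by 1.41 ± 0.28 (adjusted p = 0.000813) with no overlap.

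The largest change of all genes was the fall of Aplnr, the receptor for apelin on growing vessels. Aplnr read 3.02, 3.45, 3.59 and 3.99 in the P28 arrays, against 7.96 to 8.76 in the P14 arrays. All P28 values lay in the dimmest 25% of their arrays, and the drop of 4.71 log2 units (SE 0.25, adjusted p = 3.37e-13) was 26.1-fold. A second probe set, the only 1 of the pair not marked as sharing sequence, fell by 0.79 (adjusted p = 3.33e-05), so that the direction held on both and the size did not. The ligand gene Apln read 5.66 to 5.83 at P28 and 6.53 to 7.16 at P14 and fell by 1.10 ± 0.15 (adjusted p = 1.28e-05). Apela, the other ligand of the same receptor, was looked up after these values were seen and went the opposite way. It read 7.29, 7.58, 7.82 and 8.10 at P28, against 6.47, 6.62, 6.39 and 6.37 at P14, a rise of 1.24 ± 0.33 (adjusted p = 0.0106). With the mean of its probe sets the rise was 0.83 (adjusted p = 0.0529).

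Genes of sprouting and of mature endothelium fell with it. Of 10 measured sprouting vessel genes 6 fell and none rose (median -0.39), and of 13 endothelial genes 7 fell and 2 rose (median -0.46). Over all genes 7.94% fell and 5.77% rose. Claudin 5, the tight junction protein of the blood-retina barrier (Cldn5), read 7.25, 7.21, 7.09 and 7.24 in the P28 arrays, against 8.88, 9.22, 8.88 and 8.88 in the P14 arrays. The groups were far apart, with P14 replicate 2 above the other P14 arrays, and the drop was 1.76 ± 0.17 (adjusted p = 4.88e-08). Cd93, a surface glycoprotein of endothelium, fell by 2.45 ± 0.21, with 5.36 to 5.95 at P28 and 7.74 to 8.35 at P14, and by 1.10 with the mean of its 5 probe sets, of which 3 passed. Falls of the receptor kinase Tie1 (-1.10), Pecam1 (-0.68), Cdh5 (-0.68), Emcn (-0.58), Eng (-0.48) and the VEGF receptor Kdr (-0.46) also passed. Abcb1a, the efflux pump of the barrier, rose by 0.57 (adjusted p = 0.0376) and the VEGF receptor Flt1 by 0.41 (adjusted p = 0.0165).

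Without P28 replicate 3 the falls were 5 sprouting and 8 endothelial genes. With only the probe sets not marked as sharing sequence, they were 4 and 4. Among the sprouting genes, the tip-cell marker Esm1 was in the dimmest 25% at both ages (means of 2.70 at P28 and 2.72 at P14). Angpt2 (-0.44), Igfbp3 (-0.49) and Unc5b (-0.30) fell. The endothelial transcription factor Ets1 (-1.64 ± 0.16) and the surface marker Cd34 (-1.58 ± 0.17), picked from the largest falls after their values were seen, fell with no overlap.

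Pericyte genes fell in 3 of 12 cases, against 7.94% of all genes: Rgs5 by 0.98, Higd1b by 0.95 and the potassium channel Kcnj8 by 0.49. Pdgfrb (-0.52, adjusted p = 0.0599) and Abcc9 (-0.21) did not pass. Transport of omega-3 lipids across the barrier is carried out by Mfsd2a, which read 5.50 to 5.69 in the P28 arrays and 5.95 to 6.88 in the P14 arrays and fell by 0.89 ± 0.17 (adjusted p = 0.000506).

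Basement membrane and collagen genes fell with the vessel genes, 15 of 26 lower, against 7.94% of all genes, and none higher. The median was -0.58. The basement membrane linkers Nid1 and Nid2 fell by 1.76 and 1.59, Nid1 by 0.87 with the mean of its 3 probe sets. Nid2 read 3.64, 3.35, 3.60 and 3.52 in the P28 arrays, against 5.41, 4.89, 5.13 and 5.04 in the P14 arrays, and the groups did not overlap. Both chains of the vessel collagen IV, Col4a1 and Col4a2, fell by 1.14, and so did Col9a1, a collagen of the vitreous, which read 9.73 to 10.22 at P28 and 11.04 to 11.54 at P14. Serpinh1, the chaperone of collagen folding, fell by 1.78 ± 0.15, and the prolyl isomerase gene Ppic by 2.29 ± 0.15. The proteoglycan Bgn fell by 1.16, and Col3a1 by 0.92 on the probe set used but by 0.17 (adjusted p = 0.194) on the probe set not marked as sharing sequence. Col1a1 was dim and differed by 0.06. Without P28 replicate 3 the count was 14.

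Microglial genes fell in 8 of 18 cases, against 7.94% of all genes, and none rose (median -0.44). The growth factor receptor Csf1r averaged 7.70 at P28 and 8.48 at P14, a drop of 0.78 ± 0.11 (adjusted p = 2.02e-05). The complement genes C1qa, C1qb and C1qc fell by 0.43, 0.65 and 0.85, the fractalkine receptor Cx3cr1 by 0.76 and P2ry12 by 0.64. In the insulin-like growth factor system 6 of 11 genes fell, among them Igf1 (-0.55) and the binding proteins Igfbp4 (-0.62), Igfbp5 (-0.63) and Igfbp7 (-1.51), while Igf2 (0.04) and Igf1r (0.15) did not pass.

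**Figure D2:**
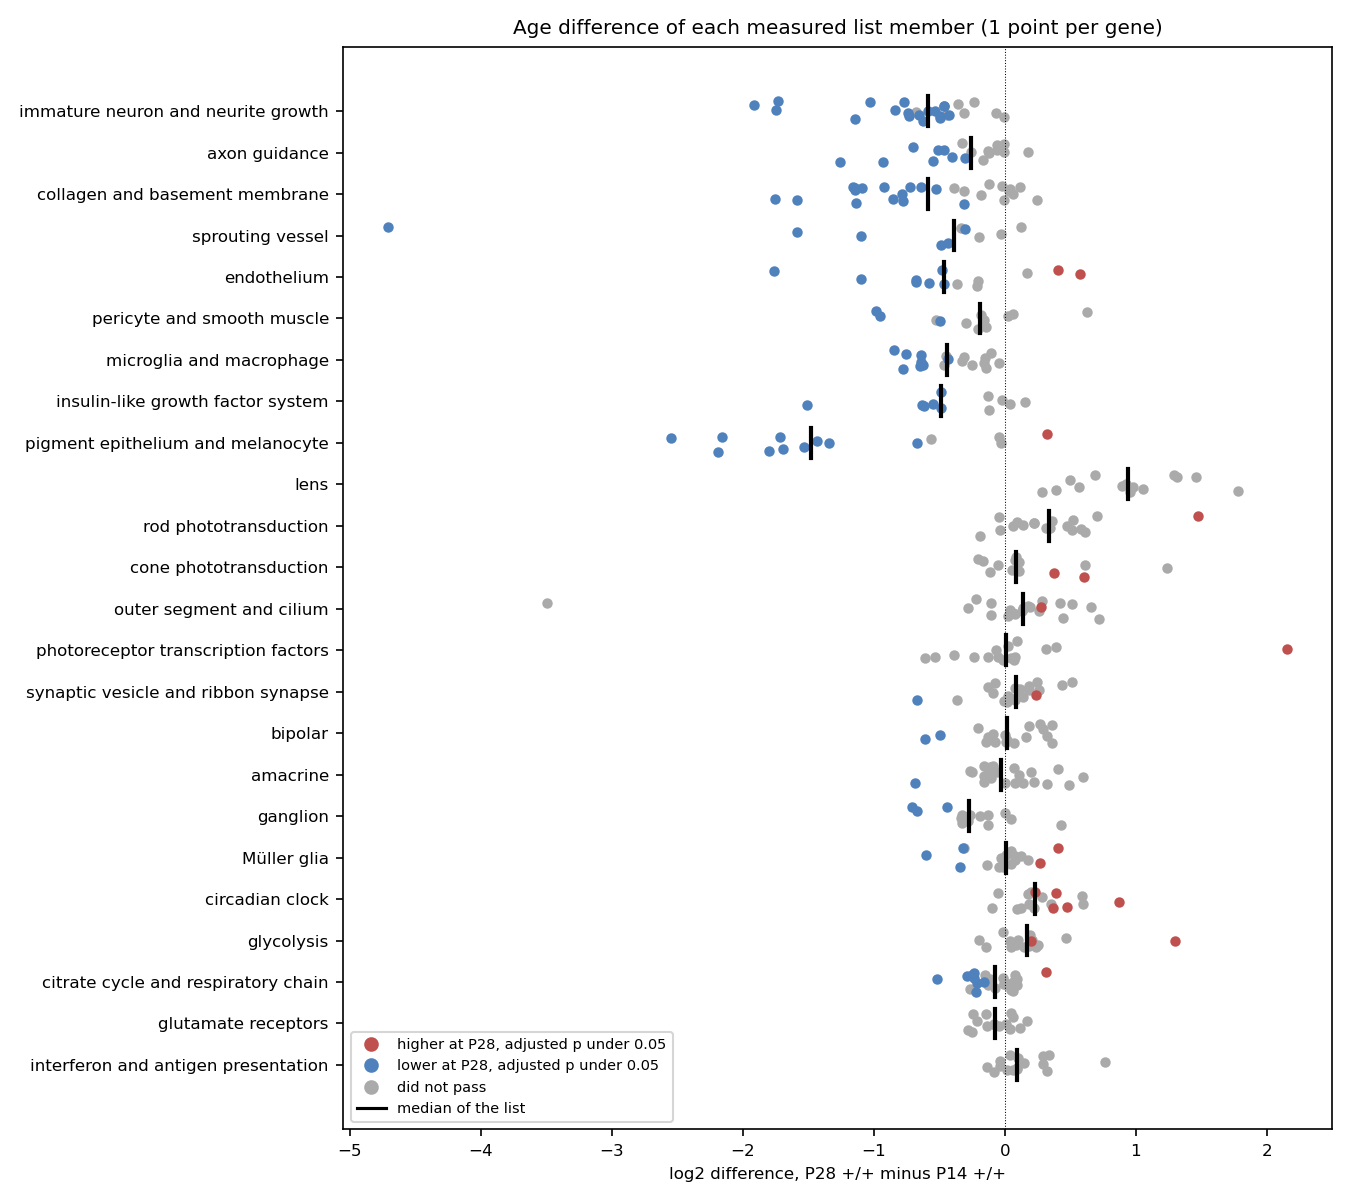
Log2 difference (P28 +/+ minus P14 +/+) of every measured member of 24 gene lists, 1 point per gene, red and blue for genes that passed as higher or lower and grey for the rest; black bars are list medians. The neurite, vessel, collagen and pigment epithelium lists lie left of 0, the rod list has a median of 0.33 with 1 member past the test, and the lens list has a median of 0.94 with none past it.

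Genes of the pigment epithelium and of melanocytes, which lie behind the retina and can stay attached when it is dissected, were lower at P28. Of 14 members 10 fell and 1 rose (Mitf, 0.32, named for being the only 1), with a median of -1.48. Over all genes 7.94% fell and 5.77% rose. The list averaged 6.16, 5.88, 6.89 and 5.85 in the P28 arrays, against 7.25, 7.58, 7.39 and 7.54 in the P14 arrays. Rpe65, the isomerase of the visual cycle, read 6.33, 5.47, 8.11 and 5.71 in the P28 arrays, against 8.08, 8.43, 8.08 and 8.22 in the P14 arrays. P28 replicate 3, the sample with the highest lens level, reached the P14 level, and the other 3 did not. The transthyretin gene Ttr read 8.92 to 10.12 in the other P28 arrays, against 11.95 to 12.49 in the P14 arrays, and P28 replicate 3 lay within that P14 range. The pigment genes Dct and Pmel fell by 2.55 ± 0.36 and 2.19 ± 0.28 with no overlap, and Tyrp1 by 1.72.

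Other genes among the 15 largest falls are known from this tissue. Myo7a, a myosin of the pigment epithelium and photoreceptors, read 3.38, 7.31, 6.49 and 6.36 in the P28 arrays, against 7.95, 8.26, 8.47 and 7.48 in the P14 arrays. P28 replicate 1 was far below the rest, and the drop of 2.16 ± 0.58 (adjusted p = 0.011) became 1.32 (adjusted p = 0.0717) without it. Col8a1, a collagen of the membrane beneath the pigment epithelium, fell by 1.92 and Calml4 by 1.85, each with P28 replicate 3 highest of its group (6.98 and 4.63). In Rorb-/- and Rorb-/-;CrxpNrl retina Col8a1 differed by 0.56 and 1.18, on the side of Dct (0.99 and 1.49). Calml4 (-0.60 and -1.81) and Myo7a (-0.40 and -0.20) were negative there.

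The mean of the pigment epithelium list separated the ages without overlap. Adding the mean of 7 of its genes as a covariate left 357 genes called, 126 higher and 231 lower. The slope on that mean was fitted within groups, so it shifts genes that follow it from array to array. Since that mean also differs between the ages, the fit can widen the SE of other genes. Edn2, for example, went from 1.59 ± 0.32 to 1.62 ± 0.49 (adjusted p = 0.088). In that fit 10 immature neuron genes, 5 collagen and basement membrane genes, 3 sprouting vessel genes, 1 endothelial gene and 1 microglial gene remained lower. The genes chosen for naming included 159 called ones, which are not all the called list members. Of these 159, 117 did not pass in that fit. Among the 117, 85 had a difference in the same direction and within 1.5 times of the one without the covariate, 25 were smaller, 1 was larger and 6 turned. All 8 endothelial genes that no longer passed were within 1.5 times, such as Kdr (-0.48), Pecam1 (-0.61), Cdh5 (-0.59) and Emcn (-0.52). Gap43 was at -0.69 and Fabp7 at -2.59 in that fit. The differences of Nnat, Aplnr, Etnppl and Sgk1 still passed. The part of carried-over tissue in these differences was not tested.

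**Figure D3:**
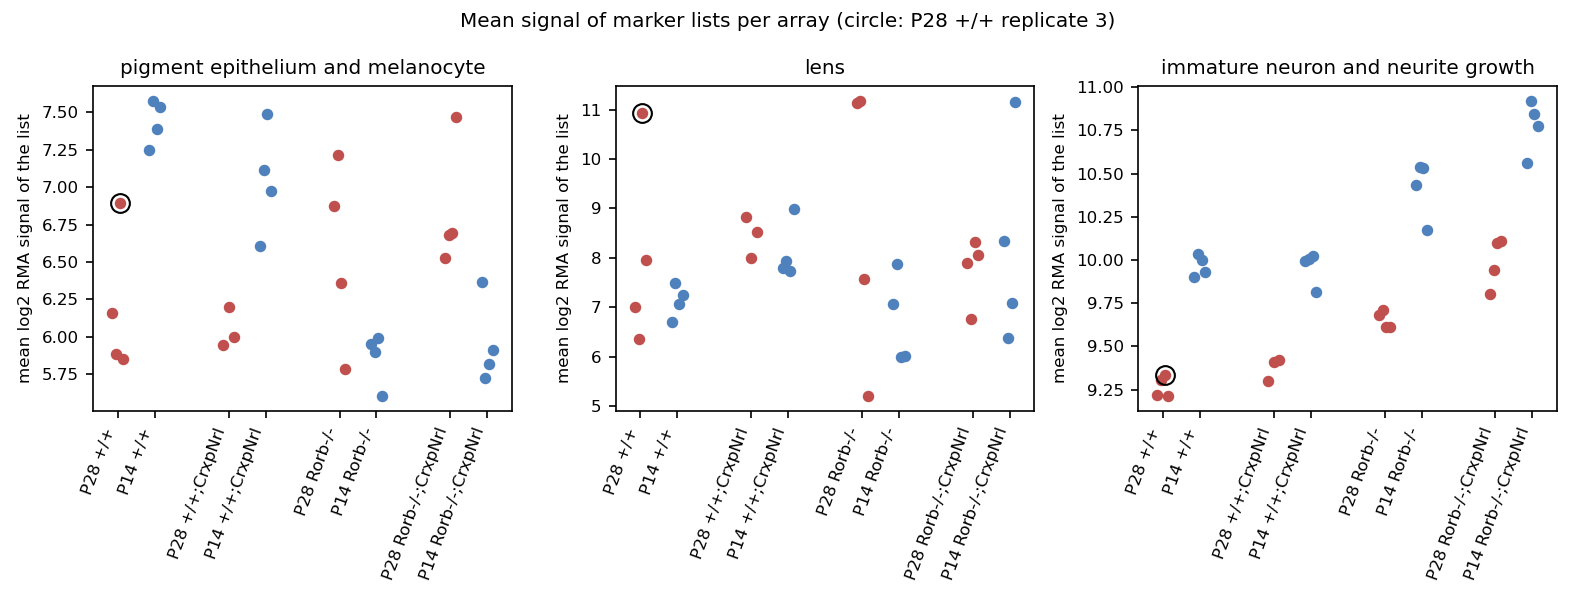
Mean log2 RMA signal of the pigment epithelium and melanocyte list (14 genes), the lens list (14 genes) and the immature neuron list (25 genes) in each array of the 8 groups, P28 in red left of P14 in blue for each genotype; P28 +/+ replicate 3 is circled. In +/+ the pigment epithelium list is lower at P28 and the circled array has the highest lens level of its group at 10.93, while its immature neuron level of 9.33 lies close to the 9.21 to 9.31 of the other P28 arrays.

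Fatty acid, energy and clock genes made up a smaller part of the change. Fabp7, the fatty acid binding protein of radial glia and young astrocytes, read 4.83, 6.41, 5.01 and 5.34 in the P28 arrays, against 7.81, 8.47, 7.63 and 7.66 in the P14 arrays, and it fell by 2.50 ± 0.47 (adjusted p = 0.00053). The very-long-chain fatty acid elongase Elovl4, which photoreceptors need, differed by 0.26 and did not pass. Hk2, the hexokinase that photoreceptors use for aerobic glycolysis, read 11.65, 11.67, 11.35 and 11.54 at P28, against 9.82, 9.75, 10.78 and 10.66 at P14. It rose by 1.30 ± 0.32 (adjusted p = 0.00634), with P14 replicates 3 and 4 closer to the P28 arrays, while Hk1 (0.18) did not pass. Of 25 citrate cycle and respiratory chain genes 8 fell and 1 rose, where 7.94% of all genes fell and 5.77% rose. All moved by little: Ckmt1 fell by 0.52, Cox7a2 by 0.29, and Sdha rose by 0.31. Among 14 antioxidant genes 6 fell, with thioredoxin Txn1 (-0.55) the largest, and Gstm1 rose by 0.50.

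The circadian clock list rose in 5 of 17 members, against 5.77% of all genes, and none fell (median 0.23). Bhlhe40, a repressor of clock output, read 8.66, 9.04, 8.65 and 8.72 in the P28 arrays, against 7.81, 7.59, 8.01 and 8.17 in the P14 arrays, a rise of 0.87 ± 0.19 (adjusted p = 0.00183). Per2 (0.47), Per3 (0.39), Cry1 (0.37) and Nr1d2 (0.23) rose as well, while the core activators Arntl (0.09), Clock (-0.10) and Npas2 (0.18) did not pass. The time of day at collection is not given in the sources used here. Among 23 immediate early genes, Dusp1, Npas4 (0.62) and Atf3 (0.62) rose and Ier5 (-0.26) fell, where 5.77% of all genes rose and 7.94% fell. Fos (0.27), Fosb (0.30) and Fosl2 (0.15) did not pass.

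Of 12 measured regulators of apoptosis 2 rose and 3 fell, where 5.77% of all genes rose and 7.94% fell. The survival gene Bcl2 read 7.55 to 7.70 at P28 and 6.83 to 7.18 at P14, a rise of 0.65 ± 0.09 (adjusted p = 2.01e-05), and Xiap rose by 0.33. The pro-death genes Bid, Bak1 and Bad fell by 0.87, 0.50 and 0.25. Other pro-death genes did not pass and went both ways. Casp9 (0.32 to 0.65 over 3 probe sets), Bcl2l11 (0.02 to 0.73 over 5) and Pmaip1 (0.14) were positive. Bbc3 (-0.37), Casp8 (-0.38) and Apaf1 (-0.22 and -0.21 on 2 probe sets) were negative. Of the stress list, Edn2, a peptide that photoreceptors release on damage, read 7.11, 4.87, 4.94 and 4.81 in the P28 arrays, against 3.89, 3.80, 3.83 and 3.85 in the P14 arrays. P28 replicate 1 stood alone, and the rise of 1.59 ± 0.32 was 1.03 (adjusted p = 0.00219) without it. The gliosis markers Gfap (-0.16), Stat3 (0.06) and Socs3 (0.05) did not pass, and neither did any of 17 interferon genes in limma, of which 1 was higher at an unadjusted p under 0.05.

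The remaining large rises were in genes of varied function. Myo5c, an unconventional myosin, read 6.59, 6.48, 5.97 and 6.54 in the P28 arrays, against 4.41, 4.01, 4.38 and 4.10 in the P14 arrays, a rise of 2.17 ± 0.16 (adjusted p = 4.21e-10) that its other probe set did not show (-0.06). Sh2d1a, a signalling adaptor known from lymphocytes, read 7.98, 7.83, 8.18 and 8.20 at P28, against 5.71, 6.76, 6.74 and 6.57 at P14, and rose by 1.60 ± 0.20. Col19a1 rose by 1.95 on the probe set used and by 0.76 or more on each of its 3 probe sets. Ahrr, the repressor of the aryl hydrocarbon receptor, rose by 1.91 ± 0.43, with 7.96, 6.50, 6.89 and 5.96 at P28 and 4.57 to 5.21 at P14. Traf3ip3 (1.90), the tight junction gene Marveld3 (1.64), the nuclear envelope gene Syne3 (1.50), the TFIID subunit Taf4b (1.49), the histone acetyltransferase complex subunit Jade2 (1.48) and the NAD-cleaving enzyme Bst1 (1.46) completed the 15 largest. The size depended on the probe set for Jade2, whose second probe set gave 0.13, and for Marveld3, whose 3 probe sets gave -0.05 to 1.64. With the mean of the probe sets Jade2 rose by 0.80 and Marveld3 by 0.78.

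Among markers of inner neurons and glia, the list means of horizontal cells, ganglion cells and astrocytes were lower at P28 without overlap. The counts of called markers given next stand beside 13.7% of all genes called, 5.77% higher and 7.94% lower. The horizontal cell list averaged 7.18 to 7.44 in the P28 arrays and 7.57 to 7.84 in the P14 arrays, with a median difference of -0.29. The ganglion cell list averaged 8.20 to 8.30 at P28 and 8.49 to 8.52 at P14 (median -0.27), and the 4 measured astrocyte genes 6.42 to 6.74 at P28 and 6.77 to 7.03 at P14 (median -0.28). The list medians were 0.01 for bipolar cells, -0.03 for amacrine cells and 0.01 for Müller glia. Of 18 bipolar genes, Isl1 (-0.61) and Lhx4 (-0.49) fell and none rose. Of 22 amacrine genes Npy fell by 0.68, and Gad1 (0.14) did not pass. The neurofilaments Nefh (-0.71) and Nefm (-0.67) and Eomes (-0.44) fell among 14 ganglion cell genes. None of 7 horizontal cell genes passed in limma, although all had negative differences and 3 were lower at an unadjusted p under 0.05. Of 17 Müller glia genes 2 rose, Abca8a by 0.41 and Dkk3 by 0.27, and 3 fell, Dbi by 0.60, Rlbp1 by 0.34 and Gpr37 by 0.31, while glutamine synthetase Glul (0.18) and the glutamate transporter Slc1a3 (-0.04) did not pass. The astrocyte gene Pdgfra fell by 0.82. The myelin gene Mbp differed by 0.05.

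Some of the smaller calls did not hold when 1 array was left out, although each kept its direction. The highest adjusted p of each, with the array whose omission gave it, was as follows. Without P28 replicate 1 it was 0.0713 for Eomes, 0.1 for Gpr37, 0.135 for Bad, 0.0679 for Mt1 and 0.0838 for Mt2. Without P28 replicate 2 it was 0.0733 for C1qa, 0.118 for Rgr, 0.0784 for Mitf, 0.0661 for Pclo, 0.0523 for Cry1, 0.0621 for Atf3, 0.0726 for Gabrr2 and 0.074 for Flt1. Without P28 replicate 4 it was 0.116 for Sema6a, 0.145 for Unc5b, 0.174 for Per3 and 0.0565 for Nr1d2. Without P14 replicate 1 it was 0.0619 for Per2, and without P14 replicate 3 it was 0.0969 for C1qb. Without P14 replicate 2 it was 0.115 for Abcb1a, 0.0782 for Igfbp3, 0.0674 for Nrp1, 0.0616 for Col4a1, 0.0722 for P2ry12, 0.122 for Dkk3, 0.0642 for Npas4, 0.194 for Ier5 and 0.0974 for Xiap.

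The size of other differences depended on the probe set, by more than 1.5 times when all probe sets of a gene were averaged. All of those given next kept their direction and passed. The mean was -0.47 for Dcx, -0.63 for Sox4, -0.64 for Sema3c, -0.37 for Plxna1, -0.37 for Cdh5, -0.26 for Angpt2, -0.95 for Ets1, -0.48 for Csf1r, -0.41 for Cx3cr1 and -0.46 for Pdgfra. It was -0.64 for Igfbp7, -0.37 for Igfbp4, -0.42 for Bid, -0.24 for Bak1, 0.65 for Xiap, -0.38 for Scn3a and -0.33 for Txn1. Calls lost in that fit, with their adjusted p, were Abcb1a (0.0963), Flt1 (0.0594), Mitf (0.138), Pclo (0.548), Lhx4 (0.18), Dkk3 (0.0902), Igfbp5 (0.0917), Nr1d2 (0.148), Scn3b (0.122), Gstm1 (0.138) and Zbtb16 (0.0906). With the 8 +/+ arrays alone the adjusted p was 0.0525 for Myo7a, 0.0533 for Rgr, 0.0563 for Pclo, 0.103 for Gpr37, 0.115 for Per3, 0.111 for Ier5, 0.128 for Bad and 0.0984 for Zbtb16, and 0.0169 for Pdgfrb and 0.0217 for Elovl4.

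**Figure D4:**
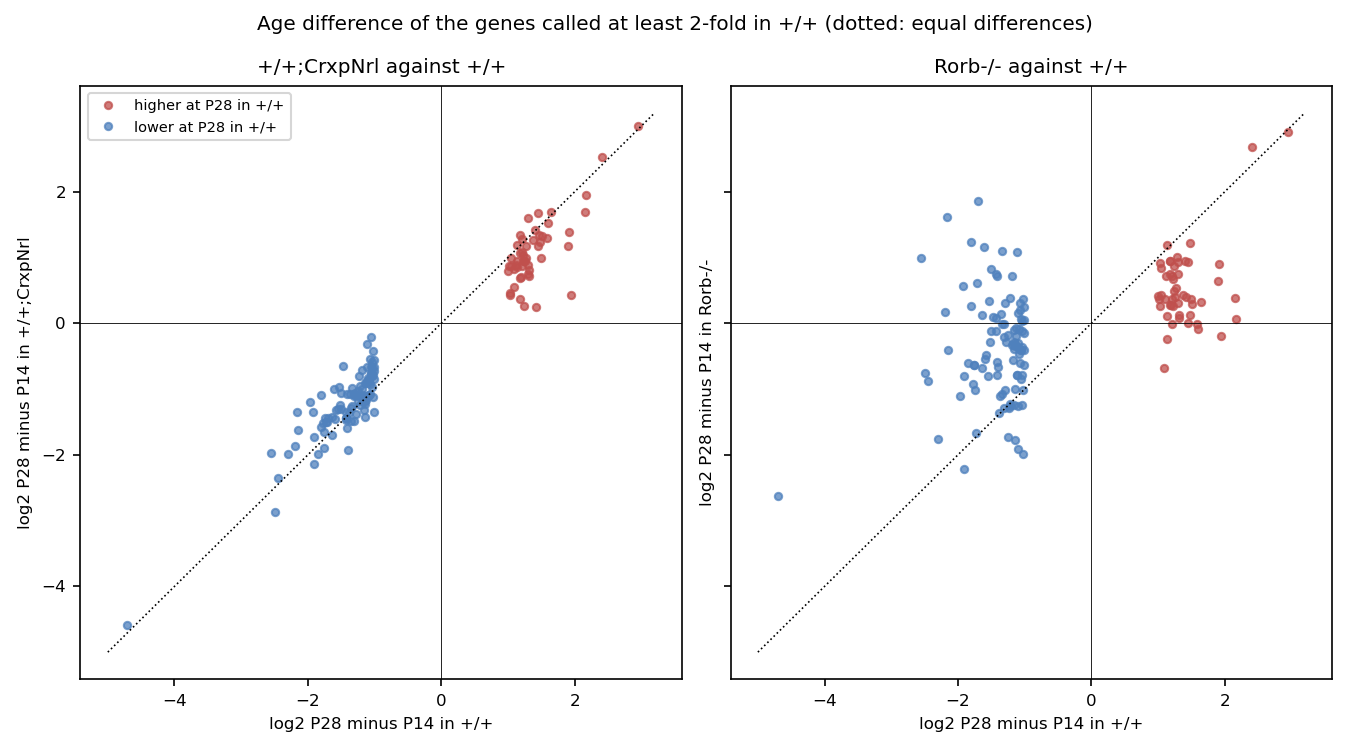
Log2 age difference in +/+;CrxpNrl (left) and Rorb-/- (right) on the vertical axis against that in +/+ on the horizontal axis, for the 154 genes called at least 2-fold in +/+; the dotted line marks equal differences. All 154 have the same sign in +/+;CrxpNrl and 118 have it in Rorb-/-; the genes were chosen on their +/+ difference.

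The same ages were compared in the other genotypes, which share no array with +/+. The retina most like +/+, +/+;CrxpNrl, had 482 genes higher (2.65%) and 1310 lower (7.2%) at P28. Of the 2495 genes called in +/+, 2381 (95.4%) had the same sign there, against 69.8% of all genes, and 1166 passed with the same sign and 1 with the opposite sign. No gene differed between the +/+ and the +/+;CrxpNrl age effect after adjustment in limma, where the smallest adjusted p was 0.123 and 938 genes (5.16%) had an unadjusted p under 0.05.

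The age difference was not the same without Rorb. Of the 2495 genes, 2101 (84.2%) had the same sign in Rorb-/- retina, against 63.5% of all genes, and 947 passed with that sign and 36 with the opposite sign. By itself, Rorb-/- retina had 6.15% of all genes higher and 8.8% lower at P28. The age effects in +/+ and Rorb-/- differed for 495 genes (2.72%), 238 with the larger or more positive difference in +/+ (1.31%) and 257 with the more negative (1.41%).

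Several of the rises above did not pass in Rorb-/- retina. Myo5c differed by 2.17 in +/+ and 0.07 in Rorb-/- (adjusted p of the interaction 7.57e-06), Sh2d1a by 1.60 and -0.08 (0.00117), Bst1 by 1.46 and 0.00 (0.00171), Syne3 by 1.50 and 0.29 (0.0144) and Mef2c by 2.16 and 0.39 (0.0362). Sh2d1a stayed in the dimmest 25% in Rorb-/- retina, at a mean of 3.05 at P28 and 3.13 at P14. So did Myo5c (3.69 and 3.63) and Bst1 (3.57 and 3.56), and a difference between such dim values is hard to read. In Rorb-/-;CrxpNrl retina Mef2c rose by 1.11 (adjusted p = 0.0113). Guca1a missed the threshold for the interaction (1.47 in +/+, 0.12 in Rorb-/-, adjusted p = 0.0634), with 13.27 at P28 and 13.15 at P14 in Rorb-/-. The 5 most positive interactions were those of Col19a1 (1.95 in +/+, -0.19 in Rorb-/-), Myo5c, Fscn2, the actin-bundling gene of photoreceptors (0.42 and -1.55), Hmgb2 (0.87 and -1.05) and Dleu7 (1.09 and -0.68). The rise of Col19a1 did not pass in +/+;CrxpNrl retina either (0.44, adjusted p = 0.302). Its interaction with that genotype had an adjusted p of 0.286. For Hmgb2 the interaction with Rorb-/- was 0.0053 (adjusted p = 0.995) on its probe set not marked as sharing sequence.

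Other rises did not differ by the test. Sgk1 rose by 2.41 in +/+, 2.53 in +/+;CrxpNrl, 2.68 in Rorb-/- and 2.42 in Rorb-/-;CrxpNrl retina, and Etnppl by 2.95, 3.01, 2.91 and 3.03. Jade2 rose by 1.48, 1.23, 1.22 and 1.83. Their interactions with the Rorb-/- age effect had adjusted p-values of 0.856, 0.988 and 0.528, which does not show that the rises are equal.

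Some vessel genes fell less in Rorb-/- retina by the interaction test. Of 13 endothelial genes 1 fell in Rorb-/-, with a median of -0.01, and 2 had a more negative age effect in +/+ by that test. Of 10 sprouting vessel genes 4 fell in Rorb-/-, with a median of -0.19, and 3 had a more negative age effect in +/+. Over all genes these shares were 8.8% and 1.41%. Cldn5 fell by 1.76 in +/+ and by 0.64 in Rorb-/- (adjusted p of the interaction 0.00976), where it averaged 6.62 at P28 and 7.26 at P14. Aplnr fell by 4.71 and by 2.63 (0.00112), with Rorb-/- means of 3.63 at P28 and 6.26 at P14. The P28 level of Aplnr was close in both genotypes (3.51 in +/+), while the P14 level was lower in Rorb-/- (8.22 in +/+). Cd93 fell by 2.45 and by 0.87 (0.00335), and Apln by 1.10 while its difference in Rorb-/- was -0.30 (0.0432).

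The immature neuron genes fell in both. In Rorb-/- retina 18 of the 25 fell, against 8.8% of all genes, with a median of -0.66. By the interaction test 2 differed, 1 in each direction, against 2.72% of all genes. Dcx fell by 1.03 in +/+ and by 1.98 in Rorb-/- (adjusted p = 0.0344), and Marcksl1 by 1.75 and by 1.02 (0.0377). Nnat fell by 1.91 and by 2.22 (0.379). At both ages the Rorb-/- level of Nnat was above that in +/+, at 9.28 at P28 and 11.50 at P14.

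Pigment epithelium genes had the most negative interactions. Dct fell by 2.55 in +/+ and differed by 0.99 in Rorb-/- retina, and Rpe65 (-1.80 and 1.23), Ttr (-2.16 and 1.62) and Rgr (-1.69 and 1.86) turned in the same way. The adjusted p-values of the interaction were 0.000214, 0.00631, 0.00374 and 0.00639. Within Rorb-/- the differences of Ttr and Rgr passed in limma (adjusted p = 0.0308 and 0.0138) and those of Dct and Rpe65 did not (0.0611 and 0.0592). At P14 the +/+ and Rorb-/- means were 9.23 and 7.36 for Dct, 8.20 and 4.85 for Rpe65, 12.30 and 9.47 for Ttr and 9.12 and 5.29 for Rgr. At P28 they were 6.68 and 8.35, 6.40 and 6.08, 10.14 and 11.09, and 7.43 and 7.15. With the pigment epithelium covariate no more than 18 genes in all differed between the age effects.

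In Rorb-/-;CrxpNrl retina 1864 of the 2495 genes (74.7%) kept the sign, against 57.7% of all genes, and the age effect differed from +/+ for 2823 genes (15.5%), with 6.67% of all genes more positive and 8.85% more negative in +/+. The interferon-induced genes Ifit1 (0.34 in +/+, 4.14 in Rorb-/-;CrxpNrl) and Usp18 (0.15 and 3.41) were among the most negative, together with Dct, Ttr and Pmel. Otop3 (-0.16 and -2.71), Myocd (-0.48 and -2.96), the elongase Elovl2 (0.15 and -1.87) and the photoreceptor factor Samd7 (-0.12 and -2.08) were among the most positive, none of which passed for age in +/+. The lysozyme gene Lyz1 (-0.32 and -2.67) had an interaction of 2.35 on the probe set used and -0.22 on the probe set not marked as sharing sequence.

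**Figure D5:**
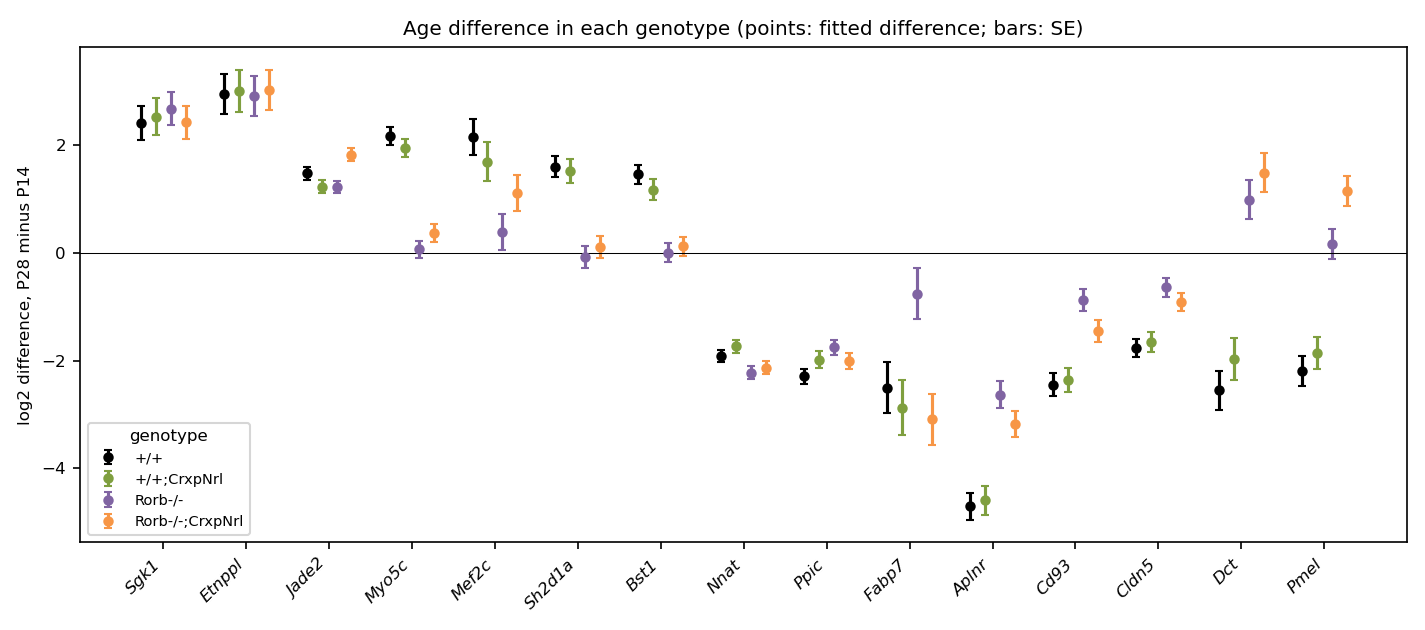
Fitted log2 age difference (P28 minus P14) of 15 genes in the 4 genotypes, with +/+ in black left of +/+;CrxpNrl, Rorb-/- and Rorb-/-;CrxpNrl; bars are SE. Sgk1, Etnppl, Jade2, Nnat and Ppic have similar differences in all 4, Myo5c, Sh2d1a and Bst1 rise in +/+ and +/+;CrxpNrl and lie between -0.08 and 0.37 in both Rorb-/- genotypes, and Dct lies below 0 in +/+ and +/+;CrxpNrl and above 0 in both Rorb-/- genotypes.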

How the data were processed

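Retinal RNA of 31 mice in 8 groups was measured on Affymetrix arrays, and 5 ug of total RNA was labelled per array according to the labels' protocols. The deposited values are log2 signals that the authors made with RMA, per the submitters' processing notes, whose version is not given in the sources used here. Precision is bounded by how many arrays each group has. Of 45101 probe sets, 34945 with 1 gene symbol in GEO's platform annotation were used. Each of 18193 genes was represented by its brightest probe set, judged by the average across the series. A probe set is marked as sharing sequence where its name ends in _s_at, _x_at or _a_at.

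The groups were compared with limma 3.58.1 in R 4.3.3 (trended prior variance, 1 mean per group over all 31 arrays, Benjamini-Hochberg over all genes, threshold 0.05), so the spread is shared with the other genotypes. Interactions subtract the age effect of another genotype from that in +/+. The code was tested on simulated data. Errors are SE of the fit unless given as SD.

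Of 736 written members of 44 lists, 673 were measured. The members and lists were chosen with earlier results of these data known. Named were the 15 largest rises and falls without overlap, the first 3 measured members of each list with up to 6 further called ones, the 5 largest interactions each way, Rorb and Nrl. Sex-linked genes and provisional symbols, such as those ending in Rik or starting with Gm or LOC, were left out of these rankings. Fewer were named where a list was long. Genes said to be picked or looked up later, and both promoter motifs, were chosen after values were seen. Alternatives were the arrays in the fit, a replicate block, centring, quantile normalization, the choice of probe sets, a filter on dim genes, the prior, array weights, covariates for sex-linked genes and pigment epithelium, and leaving out each array. The sex-linked covariate was Xist minus the mean of Eif2s3y, Kdm5d and Uty. Promoters of 300 bases came from RefSeq (GRCm38.p6).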

Additional observations from a re-analysis of the deposited data

Results flagged for a closer look

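In 25 of 522 groups of 4 arrays tested, 1 array lay far from the other 3 relative to the group's range, and chance gives about 1 in 20. Among the P28 arrays, Edn2 stood out at 7.11 in replicate 1, where the others read 4.81 to 4.94. Replicate 1 was also apart for Rlbp1 (10.96), Clock (8.94) and the mean of the ganglion list (8.20). Replicate 2 was apart for Cd93 (5.95), Fosb (3.87) and Elovl4 (11.37), and replicate 3 for Col8a1 (6.98), Calml4 (4.63) and Cldn11 (2.69). Replicate 4 was apart for Plxna1 (6.28) and for the means of the horizontal list (7.18) and of the fetal RNA-binding and HMGA list (4.83).

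Among the P14 arrays, Prph2 stood out at 7.32 in replicate 1, where the others read 12.50 to 12.71. Replicate 1 was also apart for Tubb3 (8.62), Col9a1 (11.54), Clock (9.10) and Mcm6 (6.50). Replicate 2 was apart for Psd2 (8.39), Cldn5 (9.22), Birc5 (3.96) and the mean of the apoptosis list (7.01), replicate 3 for Col19a1 (5.21) and the mean of the voltage-gated channel list (8.33), and replicate 4 for Unc5b (6.69).

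The age effect differed between +/+ and Rorb-/- for 495 genes by the interaction test. The effect in +/+ minus that in Rorb-/- was 2.15 for Col19a1, 2.10 for Myo5c, 1.98 for Fscn2, 1.92 for Hmgb2 and 1.77 for Dleu7. It was -3.78 for Ttr, -3.55 for Rgr, -3.54 for Dct, -3.03 for Rpe65 and -2.86 for Poteg. Between +/+ and Rorb-/-;CrxpNrl it differed for 2823 genes. There the difference was 2.54 for Otop3, 2.48 for Myocd, 2.35 for Lyz1, 2.02 for Elovl2 and 1.95 for Samd7. It was -4.04 for Dct, -3.85 for Ttr, -3.80 for Ifit1, -3.34 for Pmel and -3.27 for Usp18.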

How the results depend on the processing

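The pigment epithelium covariate moved the counts most. Its slope was fitted within groups, and since it differs between the ages it can also widen the SE of an age difference. It left 357 genes changed (126 higher, 231 lower, 88 at least 2-fold) and interactions of 18 genes with Rorb-/- and 64 with Rorb-/-;CrxpNrl. Under it the difference turned to 0.40 for Rpe65, 0.42 for Ttr, 0.84 for Rgr, 0.13 for Tyrp1, 0.57 for Lrat and 0.27 for Rdh5. Interactions turned to 0.038 for Ttr, 0.19 for Rgr and 0.21 for Rpe65 against Rorb-/-, and to 0.46 for Ttr against Rorb-/-;CrxpNrl. Rpe65, Ttr and Tyrp1 are part of the covariate. Without the dimmest 40% of genes 102 changes were at least 2-fold, as fewer genes were tested. Without probe sets of shared sequence Hmgb2 was -0.011 and the Lyz1 interaction with Rorb-/-;CrxpNrl -0.22. Of 159 called genes chosen for naming, 117 did not pass under the covariate, 85 of them with a difference in the same direction and within 1.5 times (Edn2 1.62, Apobec2 -2.01, Kdr -0.48) and 6 with the sign turned. Under the other settings 0 to 16 lost their call, out of the 141 tested without probe sets of shared sequence, the 123 tested without the dimmest genes and 159 elsewhere, and 15 to 30 did when 1 array was left out.

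Leaving out 1 array gave 1801 to 2319 genes changed, 759 to 900 higher, 1042 to 1419 lower, 138 to 165 at least 2-fold, and interactions of 0 to 2 genes with +/+;CrxpNrl, 338 to 440 with Rorb-/- and 2257 to 2670 with Rorb-/-;CrxpNrl. The interaction with +/+;CrxpNrl held 1 gene with the sex-linked covariate. Samples with the same replicate number did not deviate together (r of 0.135, -0.053, 0.0549 and 0.0765, and 1 of 4 matched best with its own number). A replicate block gave 3066 genes changed and an interaction of 4 genes with +/+;CrxpNrl. Dim probe sets limit folds, because values in the lowest 25% of an array lie near background.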
